A study of Citrus trifoliata with 6 samples.

Results

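Ammonium transporter (AMT) genes were examined in lateral roots of Poncirus trifoliata, a citrus rootstock, with and without the arbuscular mycorrhizal (AM) fungus Glomus versiforme. A gene was taken as a member when the description of its best protein match in the deposited tables contains the words ammonium transporter. Of the 22589 genes with a read in at least 1 library, 4 met this rule: Cs7g04990, Cs3g10730, Cs1g26160 and Cs1g19190. The Gv group had received inoculum with about 3000 fungal spores per pot, and the control (Ck) group none. Seedlings of both groups were grown 8 to a pot in sterile quartz sand, fed half-strength Hoagland solution (phosphorus at 20 μM), and harvested 3 months post-inoculation (mpi). There were 3 RNA-seq libraries per group, each from at least 9 pooled plants. Each library is of whole lateral roots, in which cells with and without fungus are mixed, so a difference in the number of cells that express a gene and a difference in RNA per cell cannot be told apart.

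Ammonium transporters are membrane proteins that carry ammonium into plant cells. Plants have an AMT1 subfamily, known from Arabidopsis and rice for ammonium uptake from soil, and a more distant AMT2-type subfamily, which includes the proteins named AMT2, AMT3 and AMT4. In AM roots the fungus passes nitrogen as well as phosphate to the plant, and AMT2-type genes of Lotus japonicus, Medicago truncatula, rice and sorghum are known to be expressed in cells that hold arbuscules.

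Among the 4 members, Cs7g04990 carried nearly all of the difference between colonized and control roots. It had at least 271 reads in each Gv library and none in the controls. With reads pooled and set against 3 control reads, it was at least 808-fold higher in Gv. Without replicate 3 of both groups it was at least 191-fold higher. Both bounds take the Gv reads as counted and allow for counting error in the controls only, so they are not confidence limits. Cs3g10730 had the same pattern at a far lower level. Cs1g26160 was above its control level only in Gv replicate 3, and Cs1g19190, the only member with more than 4 control reads in all, overlapped between the groups. Values are given as uniquely aligned reads and as RPKM, the reads per kilobase of gene length and per 1000000 reads (1 M) on genes. Between 4.34 M and 4.71 M reads were counted per library. Genes of the Casparian strip, a root barrier layer, were looked up for the root label. All 3 listed had reads in each library, at a low summed RPKM of 2.36 to 9.72. The 8 genes for chlorophyll binding proteins and the small Rubisco subunit summed to between 102 and 144 RPKM. Most of this came from the Rubisco gene Cs4g03580, with means of 112 in Gv and 106 in the controls. These levels do not settle the tissue label. Of the 8 genes, 5 were high enough for edgeR to test. Of these, edgeR and DESeq2 called 0, against 0.0% and, higher in Gv, 1.15% of all genes. At an unadjusted p under 0.05 in edgeR stood 0, against 4.57%. Root hair genes were searched for by name and 0 were found.

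Cs7g04990 is described in the tables as ammonium transporter 3 member 1-like, after a strawberry protein. Its read counts in Gv replicates 1, 2 and 3 were 271, 302 and 1796, against 0, 0 and 0 without the fungus. The groups thus did not overlap, and replicate 3 was far above the other Gv libraries. The RPKM values were 37.2, 39.4 and 249 in Gv, a mean of 109 ± 122 (SD, n = 3), which placed the gene at the 98.0th percentile of all genes by mean RPKM in Gv. A control library with 0 reads allows a level of up to 0.384 to 0.401 RPKM, which is what 3 reads would give. Of all genes listed, 148 (0.655%) had reads in every Gv library and none in any control library, and Cs7g04990 had the 4th highest mean RPKM among them. The study also measured this gene by qRT-PCR, and those measurements are not analysed here. Its qRT-PCR primers are the sequences that identify the transcript in that assay, and are given 5′ to 3′ together with those of Cs5g30580, a gene outside the rule that is described further on.
Cs7g04990 forward: aacgcatggcagctcaca
Cs7g04990 reverse: ccccggaacactttgcata
Cs5g30580 forward: cctgattgcgggagcatt
Cs5g30580 reverse: ggcacaaataacatccatgcat
The Cs7g04990 primers are 18 and 19 bases long with 55.6% and 52.6% G and C, and those of Cs5g30580 are 18 and 22 bases long with 55.6% and 40.9%. No base is capitalized, since no part of a primer was compared.

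Cs3g10730 is described as an ammonium transporter 3 member, after a Medicago truncatula protein. Its read counts were 7, 5 and 40 with the fungus, against 0, 0 and 0 without. The Gv libraries again all lay above the controls, with replicate 3 the highest. The RPKM was 0.569, 0.386 and 3.29, a mean of 1.41 ± 1.63 (SD, n = 3). Pooled over libraries and scaled for library size, the gene was at least 17.7-fold higher in Gv, and without number 3 in both groups at least 4.01-fold higher. These bounds are set against 3 reads over the control group and, like the counting intervals below, cover counting error only. Among the 148 genes with no control read it ranked 88th by mean RPKM in Gv.

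Cs1g26160, a putative ammonium transporter after a castor bean protein, had read counts of 1, 1 and 16 with the fungus, against 3, 0 and 1 without. The groups overlapped, and all but 2 of the 18 Gv reads were in replicate 3. The RPKM was 0.123, 0.117 and 1.99 in Gv against 0.360, 0 and 0.119 in control libraries. The pooled ratio of Gv to control was 4.61 (95% exact counting interval 1.52 to 18.7). Without number 3 in both groups it was 0.668 (interval 0.0558 to 5.83), so no direction was detectable at this depth without that number.

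Cs1g19190, matched to a poplar ammonium transporter, was the member with the highest level in control roots. Its read counts were 35, 50 and 123 with the fungus, against 48, 37 and 72 without. The groups overlapped in reads and in RPKM, and replicate 3 was the highest library in both groups. The RPKM was 2.88, 3.91 and 10.3 in Gv against 3.85, 2.84 and 5.71 in control libraries, with means of 5.68 ± 3.99 and 4.14 ± 1.46 (SD, n = 3 each). Set against the control library of the same number, the Gv library had 0.748, 1.38 and 1.79 times the RPKM for numbers 1, 2 and 3, so the direction was not shared by all numbers.

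**Figure D1:**
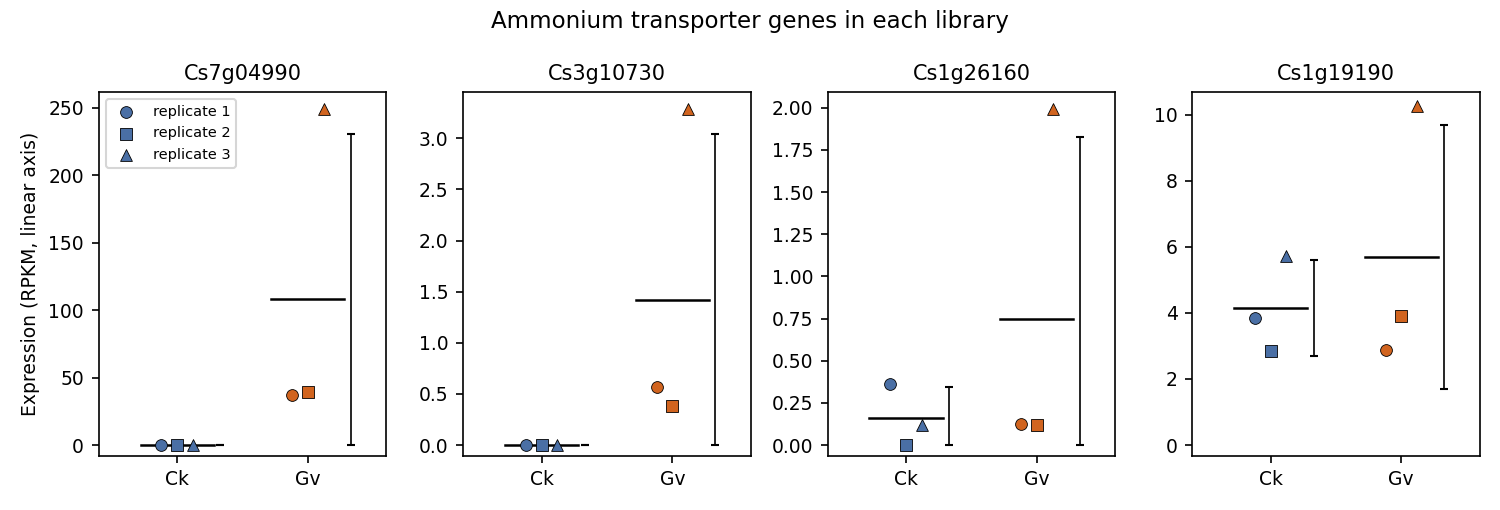
RPKM (vertical, linear, a different range in each panel) of the 4 members in control (Ck, blue) and Gv (orange) libraries, with a symbol for each replicate number, a line at the group mean and a bar of 1 SD whose lower end is drawn no lower than 0. Cs7g04990 was at 0 in the controls and between 37.2 and 249 in Gv, and Gv replicate 3 was the highest library in every panel.

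By RPKM, which allows for gene length, the order in control roots was Cs1g19190 (mean 4.14), then Cs1g26160 (0.160 ± 0.183, SD, n = 3), with Cs7g04990 and Cs3g10730 at 0 reads. The order in Gv roots was Cs7g04990, Cs1g19190, Cs3g10730 and Cs1g26160, with means of 109, 5.68, 1.41 and 0.745. The lowest Gv library of Cs7g04990 (37.2) stood above the highest of Cs1g19190 (10.3). The libraries of Cs1g19190 and Cs3g10730 overlapped between 2.88 and 3.29, although Cs1g19190 was the higher one in each library. The ranges of Cs3g10730 and Cs1g26160 overlapped and their means differed by less than the spread of the libraries, although Cs3g10730 was the higher one in each Gv library.

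Summed over the 4 members, the RPKM was 40.7, 43.8 and 265 in Gv against 4.21, 2.84 and 5.83 in control libraries. All Gv libraries were thus above all controls, and the ratio of the means was 27.1 (log2 4.76). This sum follows a single gene: Cs7g04990 made up 91.2%, 89.9% and 94.1% of it in the Gv libraries and 0% in the controls, where Cs1g19190 made up 91.5%, 100% and 98.0%. The ratio of the sums without Gv replicate 3 was 3.30 on the log2 scale. The sum is given as a description without a test, since it is a score over members chosen with these results known.

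Read counts in Gv and control roots were compared gene by gene, over 16281 genes, by the quasi-likelihood (QL) test of edgeR, with p-values adjusted by the Benjamini-Hochberg method and a call at an adjusted p under 0.05 and at least 2-fold. The filter on low counts kept 2 of the 4 members, Cs7g04990 and Cs1g19190. Cs7g04990 passed it through its Gv libraries alone, so no count or median over the members that passed is taken as support. The test called 0 of these 2 members, against 0.0% of all genes tested. At an unadjusted p under 0.05 stood 1 of them, against 4.57% of all genes. With the replicate number as a block, which takes up differences shared by same-numbered libraries, 1 member was called higher in Gv, against 0.958% of all genes. For a gene without control reads the block also takes up the spread between the Gv libraries, so this call does not weigh that spread. DESeq2, which was run without this filter, called 2 members higher, against 1.15% of the genes to which it gave an adjusted p. The limma test on log2(RPKM + 0.5) called 1 higher, against 0.118%, and with 0.1 in place of 0.5 again 1, against 0.42%. Without Gv replicate 3 the QL test called 1 higher, against 0.41%, and without number 3 in both groups 1, against 1.02%. Without the filter, when all 4 members were tested, the QL test called 0, against 0.0%, and with the block 1, against 0.912%. The Gv libraries all stood above the controls for 2 of the 4 members, against 5.49% of all genes listed.

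The log2 fold change of Cs7g04990 was fitted as 12.66 (standard error 1.97), a size that depends on the prior count because the controls had no reads. The adjusted p of the QL test was 0.367 without the block and 0.00448 with it, where the standard error was 0.32. As the controls had no reads, the block terms could follow the Gv libraries freely. The smaller error therefore leaves out the spread between them. DESeq2 gave an adjusted p of 3.08e-08, and limma on log2(RPKM + 0.5) 0.0406, or 0.0572 without its filter on low values. The lack of a call without the block rested on Gv replicate 3: without this library the adjusted p of the QL test was 0.0102 and the fitted log2 fold change 11.18. Without number 3 in both groups the adjusted p was 0.000753, while with any other single library left out it lay between 0.413 and 1.00. The direction was the same in each of these fits, and without number 3 the gene was still at least 191-fold higher in Gv.

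Cs1g19190 had a log2 fold change of 0.45 (95% confidence interval -0.76 to 1.66, QL test, adjusted p = 1.00). With the block it was 0.34 (interval -0.35 to 1.03). The sign rested on Gv replicate 3, without which the log2 fold change was -0.28. The difference between the groups was therefore not larger than the spread between replicates, and these intervals still allow a change of 2-fold in the direction of Gv.

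The other 2 members were under the filter and have values only in fits without it. Cs3g10730 then had a fitted log2 fold change of 7.15 (standard error 1.80), which again depends on the prior count, and the QL test gave an adjusted p of 0.658. With the block, which again does not weigh the spread between Gv libraries here, the adjusted p was 0.097. DESeq2, which called the gene, gave 0.00552. The limma fits did not call it, with log2 fold changes of 1.61 and 3.37 (adjusted p = 0.854 and 0.539) for added values of 0.5 and 0.1. Cs1g26160 had a log2 fold change of 2.11 (95% confidence interval -1.04 to 5.27) with adjusted p-values of 0.999 in the QL test and 1.00 in DESeq2. Without Gv replicate 3 its log2 fold change was -0.35, so the sign turned.

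**Figure D2:**
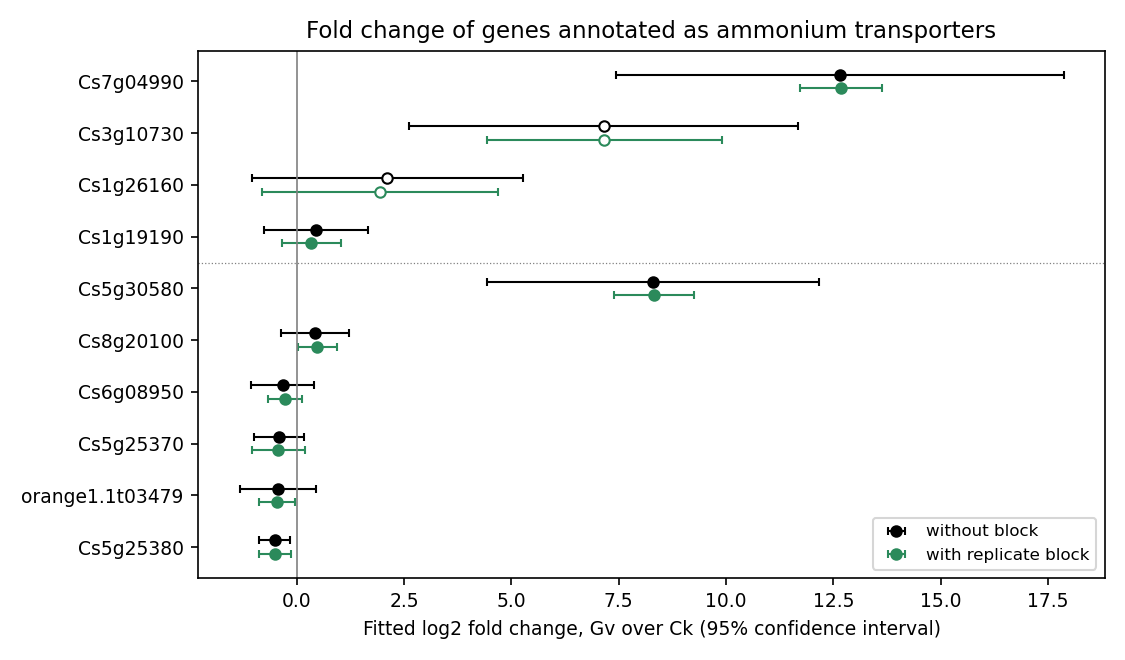
Fitted log2 fold change of Gv over control (horizontal) with its 95% confidence interval from edgeR without the block (black) and with the replicate number as a block (green), for the 4 members above the dotted line and 6 genes named as ammonium transporters by KEGG alone below it. Open symbols are fits without the filter. For Cs7g04990, Cs3g10730 and Cs5g30580, with almost no control reads, the interval with the block leaves out the spread between the Gv libraries. Cs7g04990, Cs3g10730 and Cs5g30580 lie well to the right of 0 at 12.66, 7.15 and 8.30, and the other genes lie closer to 0. Of these, the intervals of Cs5g25380 (-0.51 in both fits) and, with the block alone, of AMT1;1 (orange1.1t03479, -0.46) and Cs8g20100 (0.48) leave out 0.

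The members were then compared by annotation that the rule did not use. All 4 members carry the KEGG ortholog K03320, the Amt family of ammonium transporters. Of these, 3 (Cs7g04990, Cs3g10730 and Cs1g26160) have the same grape protein as their KEGG match, and 0 other genes in the tables have it. Cs1g19190 has a poplar protein instead. The match scores to KEGG were 657 for Cs7g04990, 300 for Cs3g10730, 289 for Cs1g26160 and 395 for Cs1g19190, so the grape protein is matched much better by Cs7g04990 than by the other pair. The listed lengths were 1659, 2801, 1848 and 2762 bases in the same order. The genes share annotation and may share sequence, and only reads with a single place in the genome were counted, so reads that fit more than 1 of them are not in these values.

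Coverage, the part of the listed gene length with reads on it, gives a further view of each gene. Cs7g04990 was covered to 89.9%, 86.4% and 95.1% in the Gv libraries. In Gv replicate 3, 83 genes with like reads per kilobase (within 1.25-fold) had a median of 75.3%. Cs3g10730 was covered to 38.3% in that library, where 1923 like genes had a median of 30.9%, and Cs1g19190 to 60.8% against 46.8%. The 16 reads of Cs1g26160 covered 28.8%, against 24.2%. The reads of all 4 members were thus spread over the listed length at least as widely as those of the median gene with like reads per kilobase.

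**Figure D3:**
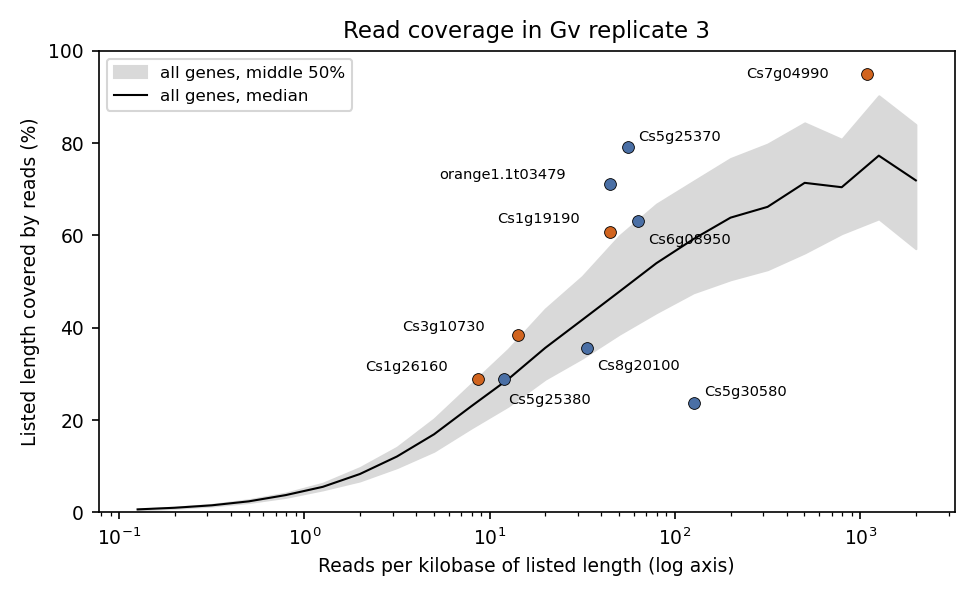
Share of the listed gene length covered by reads (vertical, %) against reads per kilobase (horizontal, log axis) in Gv replicate 3, for the 4 members (orange) and the 6 genes named by KEGG alone (blue), over the median (line) and middle 50% (grey) of all genes in bins of reads per kilobase. The members lie above the line, with Cs7g04990 at 95.1%, and Cs5g30580 lies far below it at 23.8%.

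The rise of Cs7g04990 was set beside 4 genes that the study names as raised in the same libraries, which are therefore no independent evidence. They are the symbiotic phosphate transporter genes Cs7g29450 and Cs9g18560, the proton pump gene HA1 (Cs5g08370) and the transcription factor gene MYB1 (Cs6g08490). Their summed RPKM was between 200 and 1230 in Gv and between 0.177 and 0.806 in the controls. Gv replicate 3 stood at 6.52 times the mean RPKM of Gv replicates 1 and 2 for Cs7g04990 and at 6.89 times for Cs3g10730. The same ratio was 6.00, 6.37, 7.23 and 4.54 for the 4 genes in the order named. Over the 76 genes with no control read and at least 10 reads in Gv replicates 1 and 2 together, its median was 6.26 (quartiles 5.03 and 7.56), and over the 17442 other genes with that many reads it was 1.00. Cs1g19190 stood between these, at 3.02. The part of colonization level in the spread between the Gv libraries was not tested.

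Cs7g04990 was next set against each of these 4 genes within the Gv libraries. It had 32.3, 30.7 and 34.2 reads per 100 reads of Cs7g29450 in replicates 1, 2 and 3, with 95% exact counting intervals of 28.1 to 37.1, 26.9 to 35.0 and 32.4 to 36.1. Per 100 reads of Cs9g18560 it had 78.1, 80.1 and 80.9. Per 100 reads of HA1 it had 115, 99.7 and 96.1, and the intervals of the 3 libraries overlapped for each of these 3 genes. Per 100 reads of MYB1 it had 194, 240 and 309, and here the interval of replicate 3 (281 to 339) lay above that of replicate 1 (157 to 239). Reads of Cs1g19190 per 100 reads of Cs7g29450 were 4.17, 5.09 and 2.34, where the interval of replicate 3 (1.94 to 2.80) lay below those of the other libraries (2.89 to 5.85 and 3.75 to 6.76). The interval of replicate 3 also lay below those of the other libraries per 100 reads of Cs9g18560 and of HA1. Per 100 reads of MYB1 the intervals of replicates 1 and 3 overlapped (16.7 to 36.4 and 17.3 to 25.7). That of replicate 2 (28.0 to 55.5) lay above that of replicate 3.

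**Figure D4:**
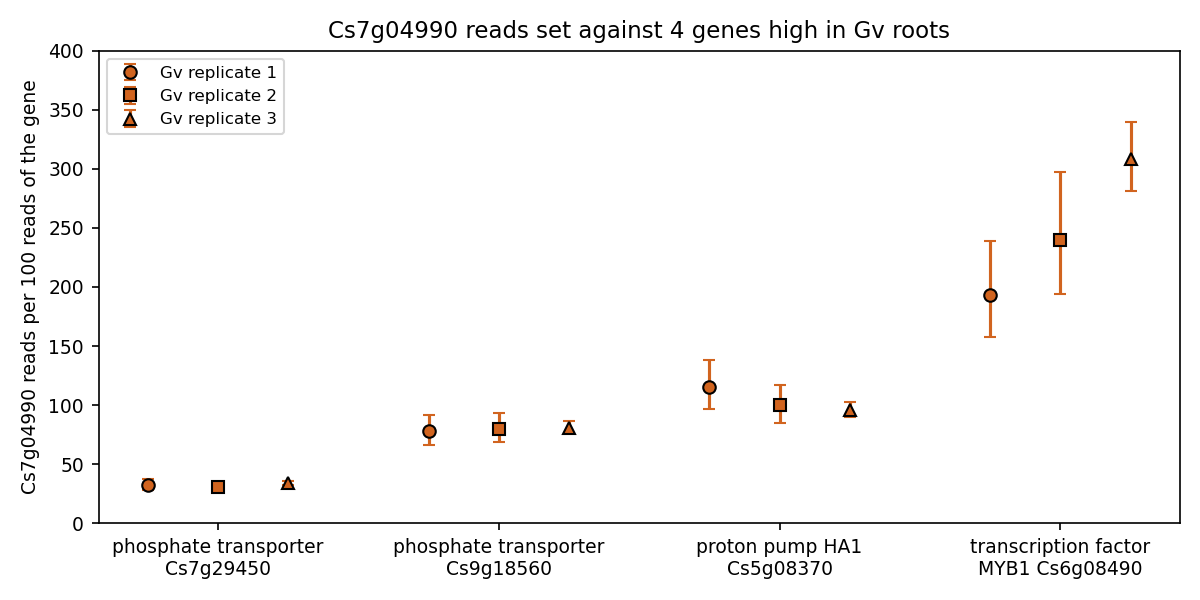
Reads of Cs7g04990 per 100 reads (vertical) of the phosphate transporter genes Cs7g29450 and Cs9g18560, the proton pump gene HA1 and the transcription factor gene MYB1 in the 3 Gv libraries, with 95% exact counting intervals. The libraries lie close together for the first 3 genes, between 30.7 and 34.2 for Cs7g29450, and apart for MYB1, from 194 in replicate 1 to 309 in replicate 3.

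The genes whose pattern was most like that of Cs7g04990 were found by Pearson's r of log2 CPM (counts per 1000000 reads) over the 6 libraries, as a description. The first 5 of 16273 genes outside the family were Cs2g20480, the phosphate transporter Cs9g18560, Cs6g20790 (an AP2 domain transcription factor), Cs5g26970 and Cs7g05270, each with r of 0.9999 or above. All of these had 0 reads in every control library, and Gv replicate 3 was the highest in each. With zeros in 3 of 6 libraries r is set mainly by the step between groups, and 70 genes reached 0.99. Within the family r was 0.39 for Cs1g19190.

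A further 6 genes carry K03320 in their KEGG text while their protein description does not contain the words of the rule. They are AMT1;1 (orange1.1t03479) and AMT1;2 (Cs5g25370), named as such in P. trifoliata itself, and Cs5g30580, Cs6g08950, Cs8g20100 and Cs5g25380, whose descriptions name no function. The last 2 have weak KEGG matches, with scores of 130 and 67.4, and their place in the family is uncertain. All 6 passed the filter, Cs5g30580 through its Gv libraries alone, so these counts are not taken as support. The QL test called 0 of them, against 0.0% of all genes tested. With the block 1 was called higher in Gv, against 0.958%.

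Cs5g30580 was the one called, and moved as Cs7g04990 did. Its read counts were 38, 43 and 338 with the fungus, against 0, 0 and 1 without. Every Gv library stood above every control library, as for 5.49% of all genes listed. Over all libraries the ratio of Gv to control was 429, with a 95% counting interval of 76.6 to 16980. Without number 3 in both groups the gene was at least 27.0-fold higher when set against 3 control reads, with the Gv reads taken as counted. The QL test gave an adjusted p of 0.36, which became 0.00154 with the block and 0.0317 without Gv replicate 3. DESeq2 called it as well (2.31e-06) and the limma fits did not (0.304 and 0.0805). For the block the limit given for Cs7g04990 holds here too, with 1 control read in all. The fitted log2 fold change, 8.30, ranged from 6.49 to 10.15 with 1 library left out. The r with Cs7g04990 was 0.99. Unlike the members, its reads lay on a small part of the listed length: 38 reads covered 20.9% and 338 reads covered 23.8%, where 1162 genes with like reads per kilobase had a median of 59.2%.

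The AMT1 genes, of which AMT1 proteins of Arabidopsis take up ammonium at the root surface, were expressed in control roots and were not called. The read counts of AMT1;1 were 36, 61 and 83 with the fungus, against 61, 71 and 120 without. In each number the Gv library was the lower one, with 0.606, 0.875 and 0.727 times the RPKM, but the groups overlapped. The log2 fold change of AMT1;1 was -0.45 (QL test, 95% interval -1.33 to 0.44, adjusted p = 1.00), and -0.46 with the block (QL test, adjusted p = 0.504). Those of AMT1;2 were 58, 97 and 101 with the fungus, against 134, 99 and 116 without, and the RPKM ratios within numbers were 0.444, 0.998 and 0.915. Here the log2 fold change was -0.42 (QL test, 95% interval -0.99 to 0.16, adjusted p = 1.00). Without the block both intervals include 0 and, for AMT1;1, a fall of over 2-fold. With the block, the interval of AMT1;1 was -0.87 to -0.046 (unadjusted p = 0.0351 in the QL test), which includes neither, and that of AMT1;2 was -1.05 to 0.19.

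Of the remaining genes, Cs6g08950 had read counts of 121, 143 and 171 with the fungus, against 135, 143 and 286 without, and Cs8g20100 of 141, 137 and 96 against 113, 115 and 54. The groups overlapped in both genes. Within numbers, Cs6g08950 had 0.92, 1.02 and 0.628 times the control RPKM, and Cs8g20100, higher in Gv in each number, 1.28, 1.21 and 1.87 times. The log2 fold change of Cs8g20100 was 0.43 (QL test, 95% interval -0.36 to 1.23). With the block it was 0.48 (interval 0.028 to 0.927, QL test, unadjusted p = 0.041, adjusted p = 0.527). In Cs5g25380 every Gv library (56, 58 and 57 reads) lay below every control library (87, 80 and 83 reads), against 3.12% of all genes listed, with a log2 fold change of -0.51 (QL test, adjusted p = 0.668). Over all 10 genes the summed RPKM was 79.7, 90.3 and 342 in Gv against 51.7, 45.8 and 65.2 in control libraries, a ratio of means of 3.15, and Cs7g04990 made up 46.6%, 43.6% and 72.9% of it in Gv. The 6 genes named by KEGG alone summed to 54.3 ± 20.3 in Gv and 50.0 ± 8.45 in the controls (SD, n = 3 each), which differed by less than the spread between replicates.

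**Figure D5:**
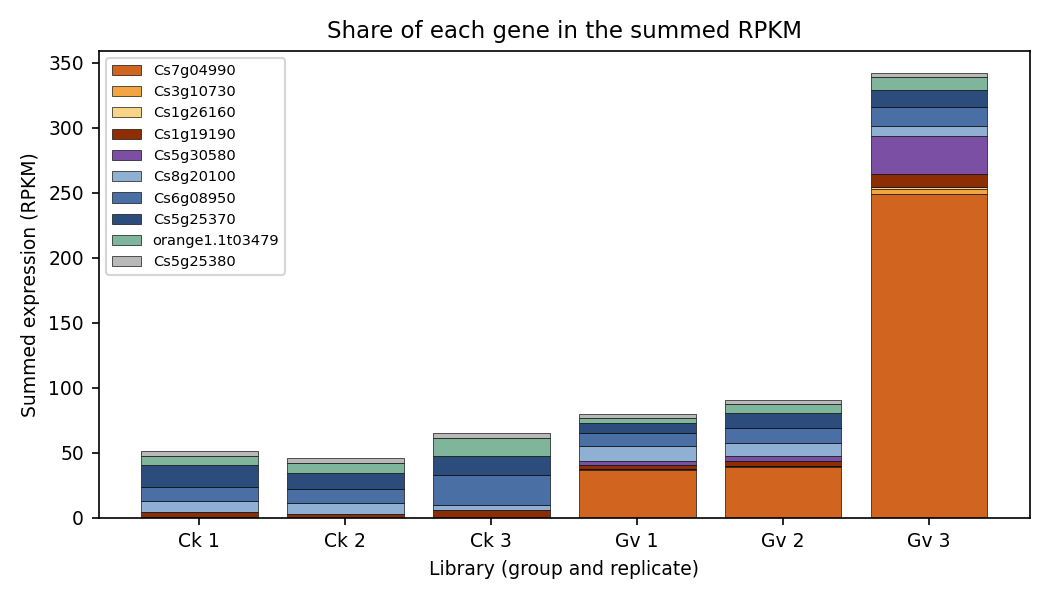
Summed RPKM (vertical) of the 10 genes named as ammonium transporters by either annotation, stacked by gene, in each of the 6 libraries. Cs7g04990 (orange) is absent from the control bars and is the largest part of every Gv bar, up to 249 of 342 in Gv replicate 3.

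Ammonium that enters a root cell is bound into glutamine by glutamine synthetase and passed on by glutamate synthase, with glutamate dehydrogenase and asparagine synthetase as side routes. By protein description the tables list 3, 5, 1 and 1 genes of these names, and 2 of the 5 matched as glutamate synthase (Cs6g06150 and Cs9g18510) belong to arginine and folate metabolism. Among these 10 genes the QL test called 0, against 0.0% of all genes. DESeq2 and the fit with the block called 0 in either direction, against 1.15% and 0.958% of all genes called higher in Gv. An unadjusted p under 0.05 in the QL test without the block was found for 0, against 4.57%. At shares this small, a count of 0 in so short a list does not set it apart from other genes. The median log2 fold change of the 10 genes was 0.09, beside -0.0097 over all genes tested. Cs6g17430, a cytosolic glutamine synthetase, had the highest level. Its read counts were 1381, 1919 and 2956 with the fungus, against 1617, 1972 and 1755 without, with a log2 fold change of 0.26 (95% confidence interval -0.44 to 0.97). The second glutamine synthetase gene, Cs7g14020, had a log2 fold change of 0.22 (interval -0.30 to 0.73). The glutamate synthase genes with the highest levels were Cs9g17990 and orange1.1t03572, with log2 fold changes of -0.24 and -0.12. Those of the glutamate dehydrogenase gene Cs7g19160 and the asparagine synthetase gene Cs1g01560 were -0.34 (interval -0.94 to 0.25) and 0.25 (interval -0.03 to 0.52). The intervals of these 6 genes, those of the glutamate synthase genes (-0.82 to 0.34 and -0.41 to 0.18) included, contain 0 and lie within 2-fold in either direction. That of the third glutamine synthetase gene, Cs9g05680, was -0.141 to 1.01 around 0.435, which contains 0 and reaches just past 2-fold.

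Urea is broken down to ammonium by urease. The 5 genes named for urease, its accessory proteins or urea transport had 0 calls in the QL test, with or without the block, and in DESeq2, and 0 had an unadjusted p under 0.05 without the block. These counts too are near the small shares of all genes given above. The pair with the highest levels, Cs8g02570 and Cs2g03560, both for accessory proteins, had log2 fold changes of 0.11 and 0.02. The largest log2 fold change of the 5 was 0.604, for Cs3g09690, described as a probable urea active transporter. Its interval in the QL test without the block, -0.0542 to 1.26, contains 0 and reaches past 2-fold. A search for the kinase CIPK23, known in Arabidopsis to act on AMT1 proteins, found 0 genes by that name.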

How the data were processed

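Lateral roots of 3 Gv and 3 control pools were sequenced. Per the paper, the authors filtered the reads for quality and placed them on the sweet orange (Citrus sinensis) genome by SOAPaligner/SOAP2 with up to 2 mismatches, and they deposited a count per gene of reads with a unique place. They also deposited the RPKM and the percent of each gene covered. Versions of the aligner and annotation are not given in the sources used here. Reads from multi-copy sequence, or too far from C. sinensis, are lost to these values. A gene not listed in a library was taken as 0 reads. The exact counting intervals cover counting error only, and PCR copies are not independent molecules. The pooled bounds cover counting error in the controls alone. The confidence intervals of the fits also allow for spread between replicates, except as stated for the block.

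The QL test of edgeR 4.0.16 (R 4.3.3) was run on the counts after filterByExpr and TMM, with group as the single term. DESeq2 1.42.0, limma 3.58.1 on RPKM after adding 0.5 or 0.1 and taking log2, other scalings and filters, the replicate block and libraries left out were alternatives. The study's NOISeq test was not run. Members and lists were chosen with earlier results of these data known. Named genes were all members, genes annotated by KEGG or GO alone, the 2 highest per list, and the 5 most alike. Cs3g09690 and Cs9g05680 were named in addition, for the larger fold changes in their lists. The fits were tested on simulated data. The log2 fold changes' standard errors came from the F value.

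Same-numbered Gv and control libraries deviated together from their group means (r across genes 0.35, 0.474 and 0.609), past the limit of 0.1, so numbers were taken to pair libraries, although no label says so. The crossed pairs of numbers 1 and 2 (0.422 and 0.269) also passed it, and those with number 3 were negative (-0.575 to -0.4). Deviations within a group sum to 0, so a shift shared by number 3 alone can give positive r among numbers 1 and 2. The check therefore cannot show that numbers 1 and 2 pair libraries. The common coefficient of variation was 29.9% without and 16.7% with the block. The deposited tables give no coordinates, and no gene sequence was used here.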

Additional observations from a re-analysis of the deposited data

How the results depend on the processing

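Calls changed with the tool, the block and number 3. The count of all genes called, 0 without the replicate block, was 162 with the block, 236 with DESeq2, 21 and 75 with limma on log2(RPKM + 0.5) and log2(RPKM + 0.1), 205 without number 3 in both groups, and 0 to 69 with 1 library left out, where only the run without Gv replicate 3 called any. Of the members, 1 was called with the block, 2 by DESeq2, 1 and 1 by the limma fits, 1 without number 3 and 0 to 1 with 1 library left out. Of the 4 colonization genes the same settings called 4, 4, 2 and 4, 4, and 0 to 4. The other settings, including members taken by protein or KEGG text, left these counts at 0, and the lists for ammonium assimilation, urea and green tissue stayed at 0 in each. The filter kept 0 of the 3 Casparian strip genes, so their count of 0 says nothing in the fits that use it.

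The fitted log2 fold change of Cs7g04990 was 12.67 with the block, 12.12 with DESeq2, 7.17 and 9.48 with limma, 11.16 without number 3 and 11.18 to 13.07 with 1 library left out. That of Cs3g10730 was 6.61 with DESeq2, 1.61 and 3.37 with limma, and 5.64 to 7.60 with 1 library left out. For Cs1g19190 it was -0.0010 without number 3 and -0.28 to 0.75 with 1 library left out. For Cs1g26160 it was -0.53 without number 3 and -0.35 to 3.34 with 1 library left out. These runs without the filter were added after the data were seen, since it removes Cs3g10730 and Cs1g26160. Cs6g08950 ranged from -0.52 to 0.079, with the positive value without control replicate 3. The median of the 2 members tested was 5.45 to 6.91 and the log2 ratio of the summed RPKM 3.30 to 5.17 with 1 library left out. This median lies midway between Cs7g04990, whose size depends on the prior count, and Cs1g19190. It is not taken as support, since Cs7g04990 passed the filter through its Gv libraries alone. The block changed the calls of Cs7g04990, Cs5g30580 and the colonization genes and no other call given here. These genes had few or no control reads, where the block takes up the spread between Gv libraries. The causes were not tested. Genes with few reads, such as Cs1g26160, are limited by depth.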

Other observations

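A single gene in the tables, Cs5g08710, has ammonium in its GO text (methylammonium transport) without being named an ammonium transporter by protein description or KEGG. It is described as the tonoplast aquaporin TIP2-2, and tonoplast aquaporins of this kind in Arabidopsis and wheat are known to pass ammonia as well as water. It was far more abundant than any ammonium transporter gene in control roots, with RPKM values of 441, 605 and 229 in Gv and 738, 548 and 146 in the controls. Replicate 3 was the lowest library in both groups, and the groups overlapped. The QL test of edgeR gave a log2 fold change of -0.19 (95% interval -1.69 to 1.30, adjusted p = 1.00), whose sign turned without Gv replicate 3 (0.11) and without control replicate 1 (0.24).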
